A study of Sus scrofa with 43 samples.

Results

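The apolipoproteins APOA1, APOA4, APOC3 and APOE and the microsomal triglyceride transfer protein MTTP were followed in the jejunum of suckling and weaned piglets. A gene was included if a spot on the array carried the accession of a pig RefSeq transcript of one of these 5 symbols. All 5 listed genes had at least 1 spot and passed the filter on dim genes, among 12771 genes tested. The spots carried 2 probes each for APOA1 (NM_214398), APOA4 (NM_214388) and APOC3 (NM_001002801), and 1 probe each for APOE and MTTP (NM_214185). In the RefSeq table of pig genes, APOA4, APOC3 and APOA1 neighbour each other on chromosome 9, APOE lies on chromosome 6 and MTTP on chromosome 8.

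Jejunal tissue of 43 piglets was measured, 1 piglet per one-color Agilent array. All piglets were offspring of Hypor gilts and sows on standard feed. The mothers of 20 piglets received oral amoxicillin, a beta-lactam antibiotic, daily at 15 mg/kg body weight in the last week before farrowing, and the mothers of the 23 control piglets received none. The piglets themselves were not treated. Control arrays numbered 6 for day 1, 6 for day 7, 3 for weaning, 5 for 4 d postweaning and 3 for 4 wk postweaning, and every age had 4 amoxicillin arrays. The first 3 ages fall in the period of sow's milk and the last 2 in the period of solid feed. The study's methods describe mucosal scrapings of 1 male piglet per sow and age, so an array holds epithelium together with cells of the lamina propria. In such tissue, fewer cells of a type and less RNA per cell cannot be told apart.

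Sow's milk is rich in fat. Enterocytes of the jejunum take up fatty acids and monoglycerides, rebuild them to triglyceride and load this onto apolipoprotein B with the help of MTTP, which transfers lipid in the endoplasmic reticulum. The particle leaves the cell as a chylomicron. APOA1 and APOA4 are made in large amounts by enterocytes and join the particle before secretion, APOC3 slows the removal of triglyceride-rich particles from the blood, and APOE is the ligand by which remnants are taken up by the liver. APOE is also made by macrophages and other cells.

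The 7 spots of APOA1, APOA4, APOC3 and MTTP were so bright that most lay at the maximum of the scanner, where the intensity no longer follows the amount of RNA. The scanner software marked 279 of these 301 spots as saturated, with raw median intensities between 65528 and 65535. After normalization these saturated spots lay between 15.43 and 16.00 on the log2 scale, and differences within that range were not read as differences in level. On 32 of the 43 arrays every spot of the 4 genes was saturated. This held for every array of day 1 and day 7 in both arms. The other 11 arrays came from weaning or later, 7 of them from control piglets and 4 from piglets of amoxicillin-treated sows. APOE was saturated on none of the arrays and well above background on 41, so its course could be followed up to its highest values. Its lowest values, down to 7.04, lay below the filter level for dim genes (7.68). The brightest unflagged dark spot was at 6.98, so the size of changes down to these values is uncertain.

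**Figure D1:**
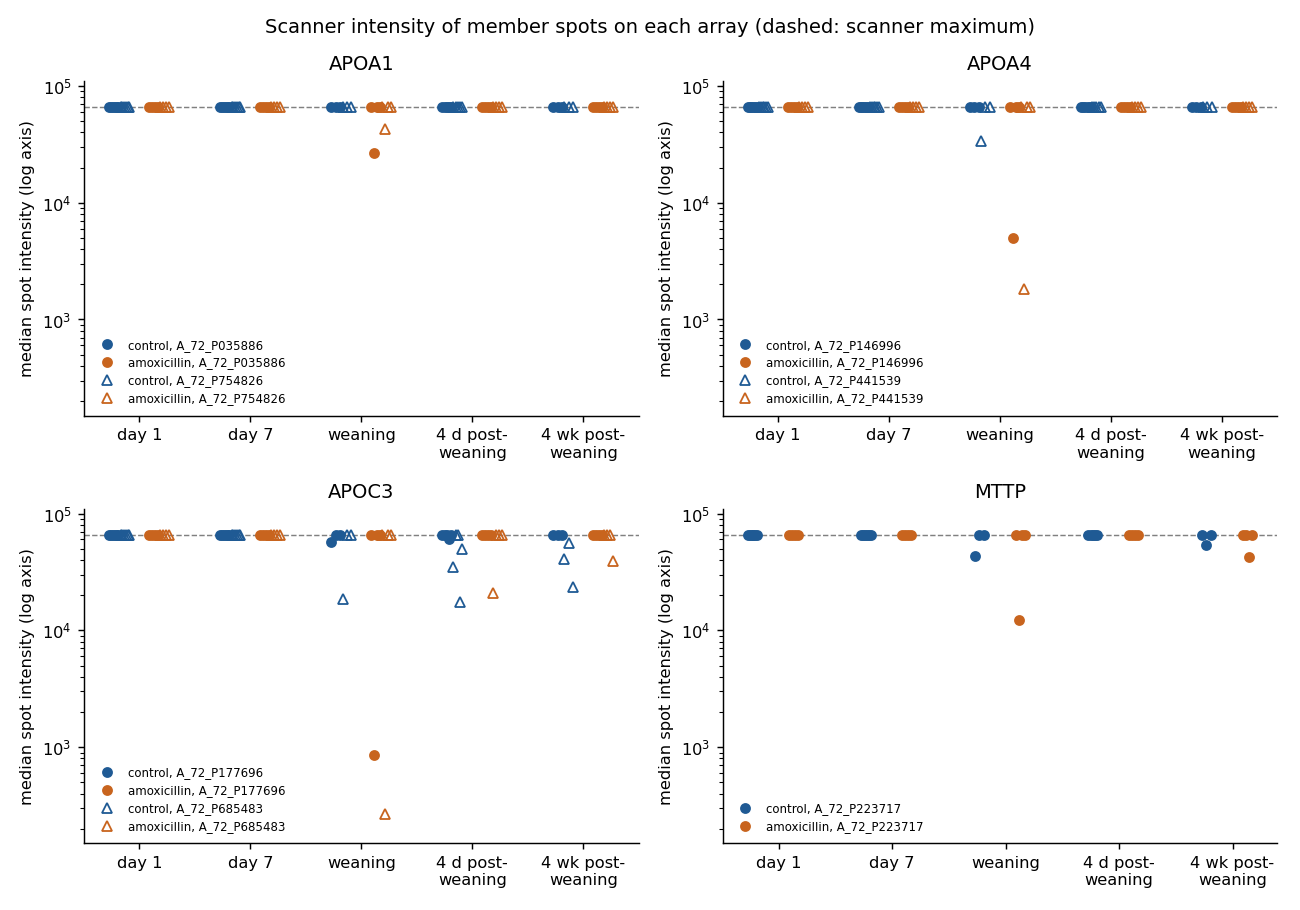
Raw median intensity of each spot of APOA1, APOA4, APOC3 and MTTP (y axis, log scale, scanner units) by age (x axis), with control arrays in blue and amoxicillin arrays in orange and a symbol for each probe. Day 1 and day 7 lie wholly on the dashed line of the scanner maximum, and the lowest point of every panel is amoxicillin weaning piglet 8.

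Slide, depth and cell markers were checked before the results were read. No label names a slide, so the scanner slot number of each scan was taken as its slide. On this reading the arrays lay on 6 slides. Each slide carried a single arm, so no comparison of the arms can be made inside any slide. Slides 1 and 4 held day 1 and day 7 arrays only. Gene spots well above background numbered 15937 to 29827 per array (median 25791), and saturated gene spots 285 to 796 (median 578). Enterocyte markers (7 of 12 listed genes tested) had a mean normalized log2 intensity from 13.34 to 14.79 on all arrays but 1. The exception was amoxicillin weaning piglet 8, at 13.02. On this array FABP6, the bile acid binding protein of ileal enterocytes, was saturated. The ileal list (3 of 7 genes tested) stood at 12.49 there, against 10.26, 10.68 and 11.68 on the other weaning arrays of its arm. It was higher still on 5 arrays of other ages, at 12.53 to 14.32. Control weaning piglet 7 had saturated FABP6 as well, an enterocyte mean of 13.62 and an ileal mean of 12.20. FABP6 was saturated on 6 arrays, and all 6 were among the 11 arrays on which a spot of the 4 genes fell below the scanner maximum. The B cell markers CD79A and MS4A1 also stood apart on these weaning arrays, with a mean of 13.76 on amoxicillin piglet 8 and 13.43 on control piglet 7, against at most 9.80 on all other arrays. The part of the sampled gut segment or of lymphoid tissue in the results was not tested. Results of APOC3, APOE and likeness are given with and without 1 or both of these weaning arrays, and those of other genes only in part.

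APOA1, the main protein of high density lipoprotein, fell below the scanner maximum on 1 array only. On amoxicillin weaning piglet 8 its probes A_72_P035886 and A_72_P754826 read 26473.5 and 42881. All other 84 of 86 spots were saturated. The same array held the lowest values of APOA4, which is induced by dietary fat and acts in satiety signalling. Its probes A_72_P146996 and A_72_P441539 read 4994.5 and 1814 there, and the second probe read 33876.5 on control weaning piglet 7. The remaining 83 of 86 APOA4 spots were saturated. For APOA1 and APOA4, the data therefore give no course over the ages in either arm, and show only that the signal reached the scanner maximum on all arrays of day 1, day 7, 4 d postweaning and 4 wk postweaning.

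MTTP had 1 probe, A_72_P223717, saturated on 39 of 43 arrays. The 4 measured values were 12323 on amoxicillin weaning piglet 8, 43700 on control weaning piglet 7, 54049.5 on control piglet 34 at 4 wk postweaning and 42440 on amoxicillin piglet 39 at 4 wk postweaning. All MTTP values of day 1, day 7 and 4 d postweaning lay at the scanner maximum. At most 1 array of any group was therefore measured, and the groups could not be ranked.

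APOC3 was the only one of the 4 genes with a probe that left the ceiling repeatedly. Probe A_72_P177696 was saturated on 40 of 43 arrays, while probe A_72_P685483 was measured on 10. In control piglets the second probe read 18706 on 1 of 3 weaning arrays (piglet 7). At 4 d postweaning it read 34992, 17659.5 and 50171 on piglets 10, 31 and 32, with the other 2 arrays saturated. At 4 wk postweaning all 3 control arrays were below the maximum, at 40961, 55869.5 and 23394. In control piglets the probe was thus measured on 6 of 8 arrays after weaning and on 1 of 15 up to weaning. In piglets from amoxicillin-treated sows it read 266 on weaning piglet 8, 20727.5 on piglet 10 at 4 d postweaning and 39073 on piglet 40 at 4 wk postweaning, which makes 2 of 8 arrays after weaning and 1 of 12 up to weaning. The second probe therefore dropped below the ceiling on most control arrays after weaning, where the first probe did so on 1, with 60205 on piglet 31.

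In the limma fit over all arrays, APOC3 averaged over its probes was 0.40 lower (log2) after than up to weaning in control piglets, with an adjusted p of 0.538. Without amoxicillin weaning piglet 8, whose APOC3 value was 9.19, the same difference of -0.40 (SE 0.15) had an adjusted p of 0.0301. Without both weaning arrays named above it was -0.53 (SE 0.13, adjusted p = 0.00206). For probe A_72_P685483 alone the difference was -0.79 (SE 0.56, adjusted p = 0.313) on all arrays, and -0.79 (SE 0.24, adjusted p = 0.00993) without piglet 8. The true size is not known, since 14 of 15 control arrays up to weaning and 2 of 8 after weaning were at the scanner maximum. Both averaged means, 15.85 up to weaning and 15.45 after it, lay within the range of saturated spots. Saturated values hardly vary, so these SEs and adjusted p do not measure the spread between piglets. No fall of APOC3 is concluded from them. For probe A_72_P177696 the difference was -0.01 (SE 0.08, adjusted p = 0.916) without piglet 8. In the amoxicillin arm the second probe differed by -0.39 (SE 0.24, adjusted p = 0.229) without piglet 8. These fits without arrays were chosen after seeing the data, and without piglet 8 limma called 36.1% of all genes after versus before weaning in control piglets. Slide moved with this result. The second APOC3 probe was below the ceiling on 5 of 7 arrays of slide 3, which held arrays from 4 d and 4 wk postweaning only, on 2 of 8 of slide 2, and on 0 of 8 of slide 1. Saturated gene spots of all genes numbered 395 to 796 per array on slide 3 and 357 to 685 on slide 1. The part of slide in the APOC3 values was not tested beyond the fits with slide. With slide as a fixed block the averaged difference was -0.57 (adjusted p = 1.00), and over all alternatives its adjusted p ranged from 0.00206 to 1.00.

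Where every array of a group was saturated and only some of the neighbouring age were, neither group mean is a true level, and no fold or limit of a fold can be given. This held for the steps between day 7 and weaning. In the amoxicillin arm piglet 8 was the only weaning array below the scanner maximum for APOA1, APOA4, APOC3 and MTTP, and the other 3 were saturated for all of them. As measured, the steps had an adjusted p of 0.146 and 0.125 for the probes of APOC3, 0.128 and 0.126 for those of APOA4 and 0.243 for MTTP. In control piglets piglet 7 was the only one of 3 weaning arrays with a measured value, and the second APOC3 probe had an adjusted p of 0.903. None of these steps passed the test.

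APOE had the clearest course of the 5 genes, high at birth and low afterwards in control piglets. At day 1 the 6 control arrays lay at 12.72, 14.20, 13.16, 11.84, 13.59 and 12.32 on the normalized log2 scale, a mean of 12.98 ± 0.86 (SD, n = 6). At day 7 they lay at 9.23, 13.77, 7.54, 7.51, 8.90 and 7.04, a median of 8.22 with an SD of 2.49 (n = 6). Of the day 7 arrays, 5 were below every day 1 array, and piglet 19 stood among the day 1 values. The 3 control weaning arrays were at 11.79, 7.92 and 9.02, the highest again being piglet 7. At 4 d postweaning the control values were 9.45, 8.33, 7.59, 8.09 and 8.91, and at 4 wk postweaning 8.61, 7.87 and 8.74. From weaning on, no control array reached the lowest array of day 1. In the order of the means, day 1 was followed by weaning (9.58 ± 1.99, SD, n = 3), day 7, 4 d postweaning (8.48 ± 0.72, SD, n = 5) and 4 wk postweaning (8.40 ± 0.47, SD, n = 3), and neighbours after day 1 differed by less than their spread.

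From day 1 to day 7 in control piglets APOE changed by -3.98 on the log2 scale (limma, SE 0.94, adjusted p = 0.0202), or 15.7-fold lower. The lowest day 7 values (7.54, 7.51 and 7.04) lay below the filter level for dim genes of 7.68, so this size is uncertain. In this step 1.43% of all genes tested were called at an adjusted p under 0.05. The mean of the groups after weaning was lower than the mean of the groups up to weaning (log2 change -2.08, SE 0.74, adjusted p = 0.0277), a comparison in which 33.6% of all genes were called. The groups up to weaning included day 1, with its mean of 12.98. From weaning to 4 d postweaning itself the change was -1.10 (SE 1.19, adjusted p = 0.641). APOE also differed between the 5 ages in control piglets (moderated F-test, adjusted p = 0.00134), as did 30.5% of all genes. The step from day 1 to day 7 rested on few arrays. Its adjusted p rose to between 0.0539 and 0.0731 without control day 1 piglet 17 or 19B, or control day 7 piglet 20, 21 or 23. It fell to 0.000648 without control day 7 piglet 19, where the change was -4.93. The difference after versus up to weaning had an adjusted p of 0.0739 without control weaning piglet 7 and 0.0763 without control piglet 34 at 4 wk postweaning.

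Slide moved with APOE. Slide 1 held all 6 control day 1 arrays and 2 of the day 7 arrays, piglets 4 and 19, whose values were the highest of day 7, and within slide 1 the change from day 1 to day 7 was -1.48. With slide as a random block the change was -3.36 (adjusted p = 0.185), and with slide as a fixed block it was -1.48 (adjusted p = 0.956). The difference after versus up to weaning was -1.86 (adjusted p = 0.179) with the random block and turned to 0.69 (adjusted p = 1.00) with the fixed block. No member was called in any comparison with slide in the fit, and age and slide cannot be told apart beyond these values.

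**Figure D2:**
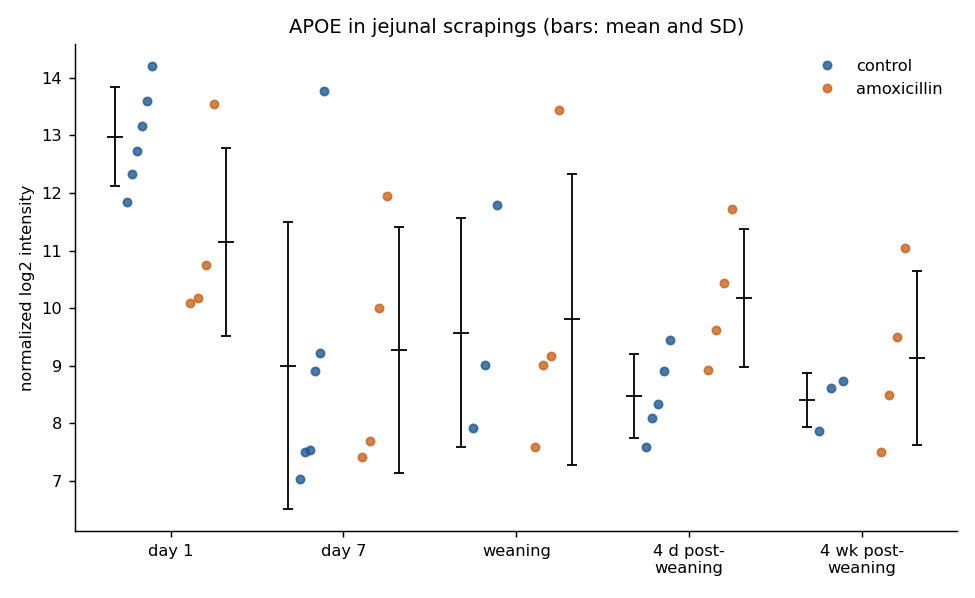
Normalized log2 intensity of APOE (y axis) on each of the 43 arrays by age (x axis), with control piglets in blue and piglets from amoxicillin-treated sows in orange; bars are the group mean and SD. The 6 control arrays of day 1 lie between 11.84 and 14.20, above all control arrays of weaning and later, and single arrays stand high at day 7 (13.77, control) and weaning (13.44, amoxicillin).

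In piglets from amoxicillin-treated sows no step in the course of APOE passed the test. The 4 arrays of day 1 lay at 10.09, 13.55, 10.18 and 10.76, those of day 7 at 10.01, 11.95, 7.42 and 7.69, and those of weaning at 7.59, 13.44, 9.02 and 9.16. At 4 d postweaning the values were 10.44, 8.93, 9.62 and 11.73, and at 4 wk postweaning 7.51, 11.05, 8.49 and 9.50. All ages overlapped, and in the order of the means (day 1, 11.15 ± 1.63; 4 d postweaning, 10.18 ± 1.20; weaning, 9.80 ± 2.53; day 7, 9.27 ± 2.13; 4 wk postweaning, 9.14 ± 1.51; SD, n = 4 each) every neighbour differed by less than its spread. The change from day 1 to day 7 was -1.88 (SE 1.15, adjusted p = 0.688), and within slide 4, with 4 and 3 arrays, it was -1.35. APOE did not pass the F-test between ages (adjusted p = 0.495), where 47% of all genes did, nor the comparison after versus before weaning (log2 change -0.41, SE 0.74, adjusted p = 0.716), where 30.9% did.

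The comparison of the arms asks whether amoxicillin in the sow changed these genes in the offspring. Here a call needed a log2 fold change beyond 1.5 in addition to an adjusted p under 0.05. None of the 5 genes was called at any age, and none had an unadjusted p under 0.05. Of all genes, limma called 0.211% at day 1, 0% at day 7, 3.41% at weaning, 1.54% at 4 d postweaning and 2.13% at 4 wk postweaning. APOE was 1.83 lower in the amoxicillin arm at day 1 (log2, SE 1.05, adjusted p = 0.61) and 1.71 higher at 4 d postweaning (SE 1.09, adjusted p = 0.571), with overlapping arrays at both ages. At the other ages it differed by 0.23 to 0.73. The F-test of whether the treatment contrast differed between ages gave an adjusted p of 0.561 for APOE and called none of the 5 genes, against 6.18% of all genes. At day 1 and day 7 both arms were at the scanner maximum for APOA1, APOA4, APOC3 and MTTP, so a difference between the arms was not detectable there. At weaning, 3 of the 4 amoxicillin arrays were saturated for these genes as well. At 4 d and 4 wk postweaning every APOA1 and APOA4 spot of both arms was saturated, as was every MTTP spot at 4 d postweaning. A difference was not detectable there either. At 4 wk postweaning MTTP was measured on only 1 array of each arm.

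In the remaining age steps no member was called. Of all genes, 0.125% were called in control piglets from day 7 to weaning, 2.53% from weaning to 4 d postweaning and 0% from there to 4 wk postweaning, the last with 789 genes at an unadjusted p under 0.05. In the amoxicillin arm the shares were 0.736% from day 1 to day 7, 11.3% to weaning, 6.37% to 4 d postweaning and 12.7% to 4 wk postweaning. APOA4 and APOC3 had an unadjusted p under 0.05 in the steps to and from weaning in the amoxicillin arm, and piglet 8 held the only measured value of APOA4 in that arm. When another weaning array (piglet 7, 25 or 29) was left out, APOA4 and APOC3 were called from day 7 to weaning. Those arrays were saturated for both genes, so leaving any of them out only gave piglet 8 more weight. No fall of APOA4 or APOC3 is concluded from these calls, and the shares of all genes called in these fits are not given here.

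The genes most like each member were sought among 1858 genes with a symbol and a value on all 43 arrays, by Pearson's r over the arrays, which share slides and ages. For APOE they were NPC2 (r = 0.74), MSMB (r = 0.73) and CTSH (r = 0.72). NPC2 carries cholesterol out of the lysosome, CTSH is a lysosomal cysteine protease, and MSMB is a secreted mucosal protein. In control piglets NPC2 went from 14.07 to 14.73 at day 1 to 11.99 to 14.30 at day 7, where piglet 19 again stood highest, and the change was -1.48 (SE 0.32, adjusted p = 0.00979). CTSH lay at 15.38 to 15.84 at day 1 and 13.26 to 15.74 at day 7, also highest in piglet 19. The steps of CTSH (-1.49, adjusted p = 0.103) and MSMB (-1.06, adjusted p = 0.168) did not pass the test. Amoxicillin weaning piglet 8 departed from this pattern, with APOE at 13.44 and NPC2 at 12.32. Without it, r with NPC2 was 0.79.

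**Figure D3:**
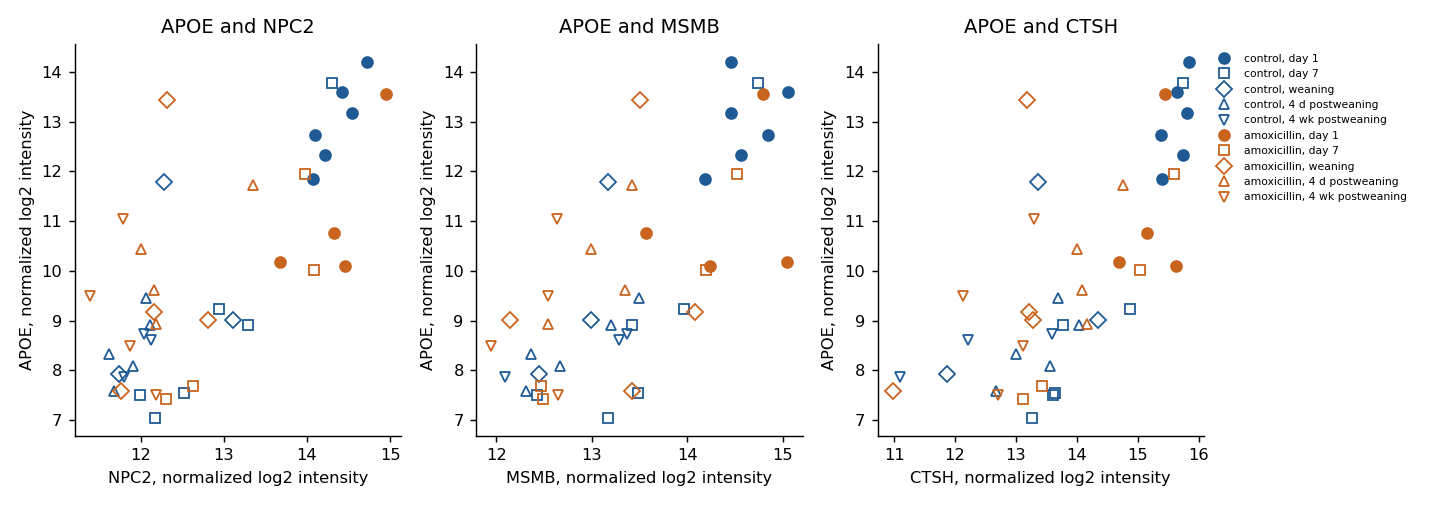
Normalized log2 intensity of APOE (y axis) against NPC2, MSMB and CTSH (x axes) on the 43 arrays, with colour for the arm and symbol for the age. Day 1 arrays (filled) and control day 7 piglet 19 (APOE 13.77) lie mostly to the right of each panel, 3 of the 4 amoxicillin day 1 arrays with APOE under 11, and amoxicillin weaning piglet 8 (APOE 13.44) lies above the other arrays of like NPC2 level (12.32).

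For the other 4 members, likeness rested largely on 1 array. APOA1 was nearest to RBP2 (r = 0.75), S100G (r = 0.74) and APOA4 (r = 0.70), and APOA4 to FABP1 (r = 0.98), APOC3 (r = 0.96) and MTTP (r = 0.90). APOC3 was nearest to FABP1, APOA4 and RBP2, and MTTP to FABP1, APOA4 and RBP2, with r between 0.85 and 0.96. FABP1 binds fatty acids, RBP2 retinol and S100G calcium in the cytosol of enterocytes, and these genes were themselves at the ceiling on 31, 39 and 41 arrays. Without amoxicillin weaning piglet 8, r fell to 0.39 for APOA1 with RBP2, 0.72 for APOA4 with FABP1, 0.56 for APOC3 with FABP1 and 0.57 for MTTP with FABP1. On that array FABP1 was at 13.25, FABP2 at 12.07 and RBP2 at 12.33, each the lowest of its gene.

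Other genes of lipid handling were followed over the same ages. Lists of apolipoproteins, lipid uptake and re-esterification, chylomicron assembly and export, cholesterol handling, lipases, and transcription factors of apolipoprotein genes held 109 genes, of which 53 had a probe and 41 were tested. After versus before weaning, 17 of the 41 were called in control piglets, 4 higher and 13 lower, and 9 in the amoxicillin arm, 2 higher and 7 lower, beside the shares of all genes of 33.6% and 30.9% given above. Of all genes, 2028 were called higher and 2268 lower in control piglets, and 1594 higher and 2348 lower in the amoxicillin arm. Their median log2 change was -0.29 in control piglets and -0.01 in the amoxicillin arm, against -0.07 and -0.08 for all genes. No list gene passed the test of a treatment contrast that differed between ages. With slide as a random block the calls were 7 and 9, and with slide as a fixed block 1 and 4. Without both weaning arrays that stood apart, 17 genes were called in the amoxicillin arm. The shares of all genes called in these other fits are not given here. Changes in these counts are therefore not read as particular to lipid genes.

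Of the other tested apolipoproteins, APOA2, a protein of high density lipoprotein, and APOM, a carrier of sphingosine phosphate, were lower after weaning in both arms. In control piglets APOA2 lay at 15.49 to 16.00 at day 1, saturated on 5 of 6 arrays, and at 13.58 to 16.00 at day 7. At weaning it lay at 8.19, 9.67 and 10.84, and it stayed between 8.83 and 12.87 thereafter. In the amoxicillin arm it was at 15.88 to 16.00, then 12.65 to 15.99, then 9.02, 10.02, 10.82 and 9.87 at weaning. No weaning array of either arm reached the lowest of day 7. At day 7 APOA2 was saturated on 1 array in each arm, so the size of its fall is not exact. The change from day 7 to weaning was -5.44 (SE 0.65, adjusted p = 5.1e-06) in control piglets and -4.92 (SE 0.65, adjusted p = 1.3e-05) in the amoxicillin arm, and it was -5.90 (adjusted p = 4.79e-06) and -6.05 (adjusted p = 0.000347) with slide as a fixed block. APOM fell by 2.77 (SE 0.51, adjusted p = 5.6e-05) and 3.05 (SE 0.51, adjusted p = 2.3e-05) from before to after weaning in the 2 arms, and with slide as a fixed block its adjusted p was 0.0615 in control piglets and 0.0328 in the amoxicillin arm. The other 2 tested apolipoproteins of the list, APOA5 and CLU, were not called in this comparison.

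**Figure D4:**
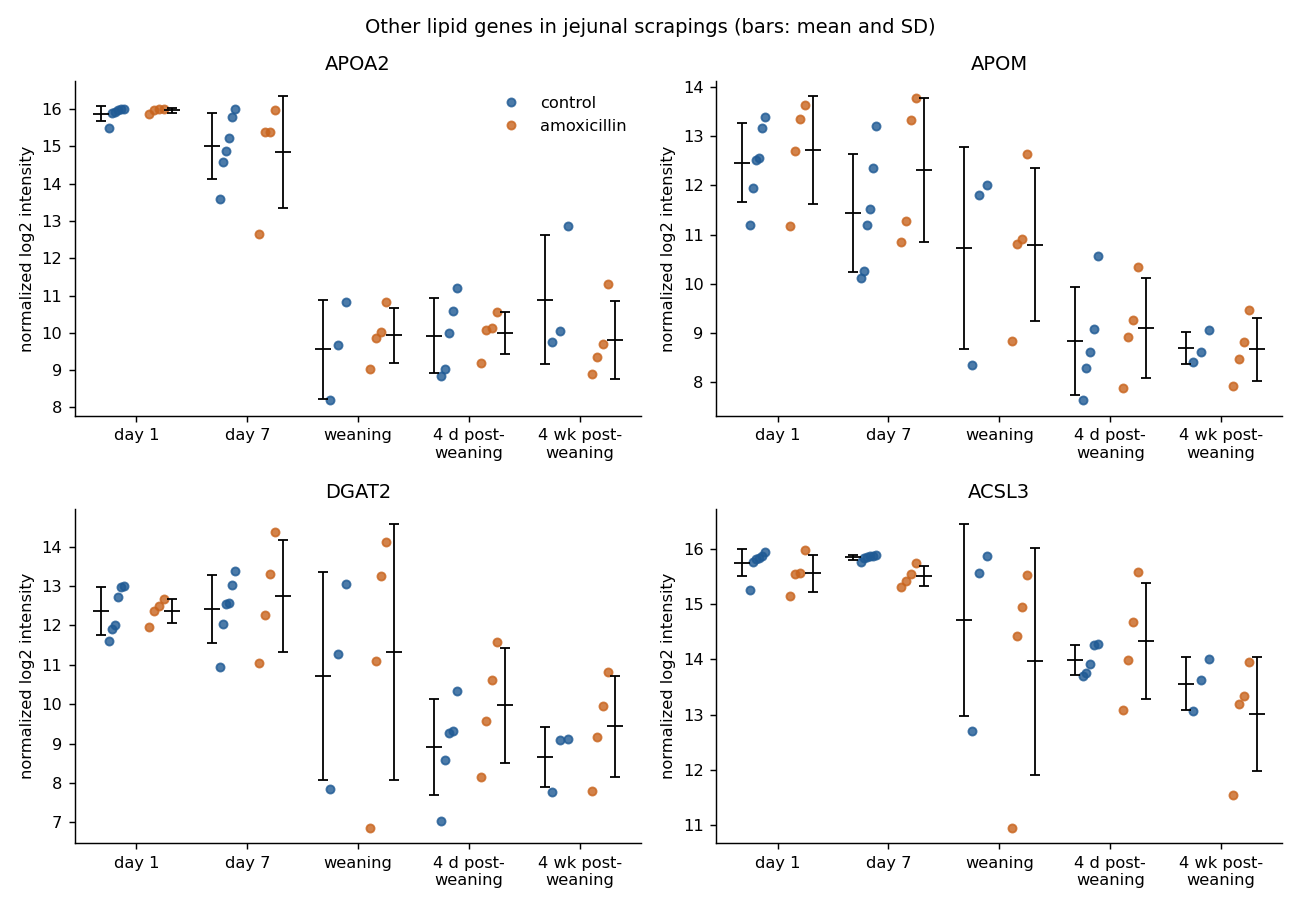
Normalized log2 intensity (y axes) of APOA2, APOM, DGAT2 and ACSL3 on each array by age (x axis), control in blue and amoxicillin in orange, with group mean and SD. APOA2 drops from day 7 to weaning in both arms, while DGAT2 and ACSL3 spread widely at weaning, from 6.85 to 14.11 and from 10.94 to 15.52 in the amoxicillin arm.

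Of the list of lipid uptake and re-esterification, 6 of 12 tested genes were called lower after weaning in control piglets. In the amoxicillin arm 3 were, and in neither arm was any called higher. Of all 12771 genes, 2268 and 2348 were called lower in the 2 arms, so these counts are not read as particular to the list. DGAT2, which makes triglyceride from diglyceride, changed by -3.05 (SE 0.65, adjusted p = 0.00039) and -2.44 (SE 0.66, adjusted p = 0.0044). ACSL3, which activates long-chain fatty acids, changed by -1.66 (adjusted p = 0.0011) and -1.34 (adjusted p = 0.009). These sizes are not exact, since ACSL3 was saturated on 3 of 6 control arrays of day 7 and 1 of 4 amoxicillin arrays of day 1. SCARB1, a lipoprotein receptor of the brush border, changed by -1.57 (adjusted p = 7.7e-05) and -1.10 (adjusted p = 0.0043). DGAT1 was lower in control piglets (-0.91, adjusted p = 0.0093) and at -0.55 in the amoxicillin arm (adjusted p = 0.122), and the difference between arms was not tested for this contrast. With slide as a random block these calls held, and with slide as a fixed block none of them did, with an adjusted p of 0.147 and 0.186 for DGAT2, 0.705 and 0.122 for ACSL3 and 0.179 and 0.286 for SCARB1 in the 2 arms and of 0.369 for DGAT1 in control piglets. At weaning, amoxicillin piglet 8 had the lowest DGAT1 value of its group, 13.22 against 15.57 for the next. The DGAT1 change in the amoxicillin arm without this piglet is not given here. With any single array left out, DGAT2, ACSL3 and SCARB1 kept their calls in both arms and DGAT1 in control piglets.

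Of the 9 tested genes of chylomicron assembly, lipid droplets and export, CAV1 (-0.77, adjusted p = 0.0274) and PLIN3 (-0.68, adjusted p = 0.0436), a lipid droplet coat protein, were lower after weaning in control piglets, and 0 of 9 were called in the amoxicillin arm. Of all genes, 33.6% and 30.9% were called in this comparison in the 2 arms. PLIN3 lost its call without any of 13 single arrays and CAV1 without any of 4, and both lost it with slide as a random block (adjusted p = 0.138 and 0.245). In the amoxicillin arm CAV1 was called lower from day 7 to weaning, with means of 9.72 and 8.04. That step was -1.59 (adjusted p = 0.0395) with slide as a random block and -1.56 (adjusted p = 0.238) as a fixed block. SAR1A and SEC23B, of the vesicle coat that carries cargo out of the endoplasmic reticulum, fell by 1.24 (adjusted p = 0.0086) and 0.85 (adjusted p = 0.0158) from 4 d to 4 wk postweaning in the amoxicillin arm, and with slide as a random block the adjusted p was 0.0374 and 0.0753. Neither was called with slide as a fixed block (adjusted p = 0.287 and 0.694). Of 3 tested cholesterol genes, LCAT, which esterifies cholesterol on lipoproteins, rose by 1.12 and 1.43 after weaning in the 2 arms (adjusted p = 0.0084 and 0.0013), and SQLE, an enzyme of cholesterol synthesis, rose by 1.26 in control piglets (adjusted p = 0.0097). In control piglets neither was called with slide as a random block (adjusted p = 0.15 for LCAT and 0.0705 for SQLE). With slide as a fixed block LCAT turned to -0.81 and SQLE stood at 0.47, again without a call. In the amoxicillin arm LCAT was called under both (adjusted p = 0.00446 and 0.0179).

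LIPA, the lysosomal acid lipase, was 1.27 and 1.35 lower after weaning in control piglets and in the amoxicillin arm (log2 change -1.27, adjusted p = 0.0034, and -1.35, adjusted p = 0.0025). With slide as a random block both calls held (adjusted p = 0.0435 and 0.00995). With slide as a fixed block neither did, at -0.66 in control piglets and -1.83 (adjusted p = 0.123) in the amoxicillin arm. In the amoxicillin arm LIPA was already low at weaning, with a mean of 8.48, against 9.19 at 4 d and 8.87 at 4 wk postweaning. Its change from day 7 to weaning was -2.69 (limma, adjusted p = 0.00106), a step in which 11.3% of all genes were called. That step was -2.41 (adjusted p = 0.0107) with slide as a random block and -1.71 (adjusted p = 0.297) as a fixed block. LIPA was also the only gene of these lists called between the arms, at weaning, with -1.93 (SE 0.57, adjusted p = 0.029). Its 3 control weaning arrays spread from 8.97 to 12.00, and its 4 amoxicillin arrays from 7.13 to 9.78. The call was lost without control weaning piglet 24 or 25 or amoxicillin weaning piglet 8 or 29, with an adjusted p of up to 0.321, with slide as a random block (adjusted p = 0.172), with the arrays of weaning alone (adjusted p = 0.427) and with piglet number as a block (-1.28, adjusted p = 0.197). LIPE, the hormone-sensitive lipase, rose by 1.58 from day 7 to weaning in the amoxicillin arm (adjusted p = 0.0498), a call lost without any of 29 single arrays and with slide as a random block (adjusted p = 0.145). Among the 10 tested transcription factors, PPARGC1A (0.95, adjusted p = 0.0058) and PPARG (0.74, adjusted p = 0.0171) were higher and NR2F2 (-0.81, adjusted p = 0.0013) and NR1H3 (-0.58, adjusted p = 0.0052) lower after weaning in control piglets. PPARG and NR2F2 were also called in the amoxicillin arm, at 0.93 (adjusted p = 0.0038) and -0.86 (adjusted p = 0.00095). With slide as a random block none of the 4 was called in control piglets (adjusted p = 0.0866 for PPARGC1A, 0.123 for PPARG, 0.0513 for NR2F2 and 0.0524 for NR1H3), and NR2F2 turned to 0.068 with slide as a fixed block. In the amoxicillin arm PPARG and NR2F2 were called with the random block (adjusted p = 0.00943 and 0.00845). With the fixed block PPARG was called there (adjusted p = 0.0264) and NR2F2 was not (adjusted p = 0.365). NR2F2 was already called lower from day 7 to weaning in that arm, with means of 9.15 at day 7, 7.49 at weaning and 8.13 at 4 d postweaning. That step was -1.60 (adjusted p = 0.00404) with slide as a random block and -1.37 (adjusted p = 0.135) as a fixed block.

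**Figure D5:**
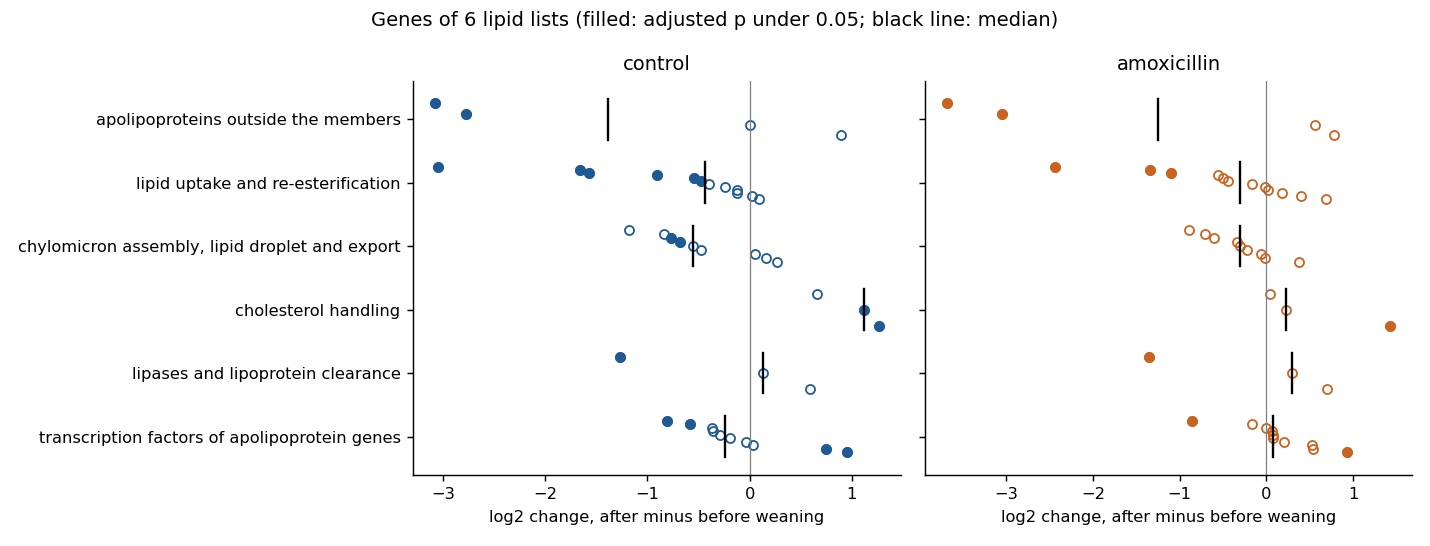
Log2 change of each tested gene of the 6 lipid lists, mean after weaning minus mean up to weaning (x axis), in control piglets (left) and in the amoxicillin arm (right); filled points passed an adjusted p of 0.05 in limma and black lines are list medians. In the apolipoprotein list the lowest 2 points of each arm are APOA2 and APOM, and no gene of the uptake list was called higher.

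Markers of cells other than enterocytes were set beside APOE and the lipid genes. Of 11 listed macrophage genes, 7 were tested, and from day 1 to day 7 in control piglets, where APOE fell, C1QB was called higher (log2 change 1.502, adjusted p = 0.0133) and none lower, with CD163 at -1.06 (adjusted p = 0.424). MRC1 also went down (-0.47), while LYZ (2.50), C1QC (1.14), C1QA (1.00) and AIF1 (0.38) went up, none of them called. The markers thus did not move as one. Their mean ranged from 10.44 to 12.09 on the control arrays of day 1 and from 11.58 to 13.02 on those of day 7. Enterocyte markers ranged from 13.34 to 13.87 and from 13.66 to 14.40 on the same arrays, and after versus before weaning 5 of the 7 were called higher in control piglets, 3 in the amoxicillin arm, and none lower. Of all 12771 genes, 2028 and 1594 were called higher in that comparison in the 2 arms. Liver markers, of which 3 of 12 were tested, ranged from 8.55 to 9.92 at day 1 and 7.18 to 8.94 at day 7 in control piglets, with 1 called lower. T cell markers, 5 of 7 tested, ranged from 6.16 to 6.93 at day 1 and from 9.32 to 9.94 at 4 wk postweaning in control piglets, with 5 called higher after weaning. The part of these changes in the values of the lipid genes was not tested.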

How the data were processed

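The authors labelled jejunal RNA with cyanine 3, scanned 43 arrays and deposited the linear intensity, local background and flags of every spot, together with a table of normalized log2 values. Their processing notes name R 3.0.2 and limma; the genome build is not given in the sources used here. Median intensities were corrected with normexp (offset 1) and quantile normalized on the linear scale before log2, which gave the authors' table within 5.0e-09. Flagged spots were left out and probes averaged per accession. Genes above 7.68 (1.1 times the brightest unflagged dark spot, 6.98) on every array of at least 1 group were tested with limma 3.58.1 in R 4.3.3, as 10 groups in 1 fit, with Benjamini-Hochberg adjustment over 12771 genes. Saturated spots kept their values. The fits were tested on simulated data. The number of arrays limits the precision, and p-values measure the spread between single piglets, except where most arrays were saturated.

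Each count was recomputed with the authors' table, with offset 50, with scaling to a common 75th percentile (normexp or processed signals), without the dimness filter or with detection flags in its place, with slide as a random or fixed block, with each age alone, with piglet number as a block, with other fold thresholds and with each array left out. Added after seeing the data were 1 value per probe and fits without both weaning arrays that stood apart. Members and lists were chosen with earlier results of these data known. Text names all members, up to 4 called genes per lipid list by size of the control change around weaning, and the 3 genes most like each member; APOA5, CLU, FABP6 and the marker genes were named after their values were seen. Symbols came from the RefSeq table of Sscrofa11.1, by accession, for 3037 accessions. Markers of goblet cells, smooth muscle, blood, B cells and pancreas were also listed; 2 goblet, 3 smooth muscle, 0 blood, 2 B cell and 3 pancreas genes were tested, with 1, 0, 0, 0 and 0 called higher and 0, 0, 0, 0 and 1 called lower after weaning in control piglets. Of 7 ileal markers 3 were tested and 1 was called higher. In this comparison 33.6% of all genes were called in control piglets.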

Additional observations from a re-analysis of the deposited data

Results flagged for a closer look

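In groups of 4 to 10 arrays, the highest or lowest array of the members and of the lipid genes named above was compared with its neighbours by Dixon's test, leaving out groups in which every array was saturated. Of 160 such groups 18 stood out. The test's rate of about 1 in 20 holds for independent values without a ceiling. Here the groups share arrays, and a measured array beside saturated ones stands out almost by construction. The count is therefore not read as an excess. Amoxicillin weaning piglet 8 was low in 5 of them, with normalized log2 values of 15.58 for APOA1, 12.10 for APOA4, 9.19 for APOC3, 14.22 for MTTP and 13.22 for DGAT1. Its neighbours were at 15.98, 15.99, 16.00, 15.97 and 15.57, the first 4 of them saturated. Control day 7 piglet 19 stood out for APOE at 13.77, with the next array at 9.23. Near the scanner maximum, MTTP of amoxicillin piglet 39 at 4 wk postweaning was 15.21, APOA2 of control day 1 piglet 17 was 15.49 and of amoxicillin day 1 piglet 17 was 15.88, and ACSL3 of control day 1 piglet 16 was 15.26. The other single values were LCAT at 9.72 and LIPE at 9.36 in amoxicillin day 7 piglet 4, LIPE at 9.73 in amoxicillin piglet 34 at 4 d postweaning, SAR1A at 11.64 in amoxicillin piglet 38 at 4 wk postweaning, SEC23B at 10.37 in amoxicillin day 1 piglet 2, SCARB1 at 11.55 in control piglet 30 at 4 d postweaning, and PPARG at 9.81 in control day 1 piglet 19 and 9.08 in amoxicillin day 1 piglet 17.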

How the results depend on the processing

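Under the alternatives of scaling, offset, filter, table, fold threshold and age, no count of members called changed, and APOE kept its direction and its calls. Slide did change results. As a random block it left 0 members from day 1 to day 7, 0 after versus before weaning and 0 between ages in control piglets, and 7 other lipid genes after weaning in control piglets, 5 between ages in control piglets and 11 in the amoxicillin arm. As a fixed block it left 0, 0 and 0 members, and 1 and 4 lipid genes after weaning and 1 and 3 between ages in control piglets and the amoxicillin arm. Under the fixed block, 4 changes after weaning in control piglets turned their direction: APOE to 0.69, LCAT to -0.81, CAV1 to 0.21 and NR2F2 to 0.068; the cause was not tested. Without both weaning arrays that stood apart, 2 members (APOC3 and APOE) were called after weaning and 2 between ages in control piglets, and 17 and 29 lipid genes after weaning and between ages in the amoxicillin arm. The APOC3 calls carry the limit of saturation given above. No share of all genes is set beside the counts with slide or with arrays left out, so they are not read as particular to these genes.

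Leaving out single arrays gave 0 to 1 members from day 1 to day 7 and 0 to 2 after weaning in control piglets, 0 to 2 from day 7 to weaning and 0 to 1 between ages in the amoxicillin arm, and 9 to 15 lipid genes after weaning in the amoxicillin arm, the highest without amoxicillin weaning piglet 8. The member calls from day 7 to weaning carry the limit of saturation given above. Likeness ranged from 0.39 to 0.83 for APOA1 with RBP2, 0.72 to 0.99 for APOA4 with FABP1, 0.56 to 0.98 for APOC3 with FABP1 and 0.57 to 0.97 for MTTP with FABP1.

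Piglet numbers occur in both arms for 10 pairs. Deviations from the group means correlated from -0.27 to 0.44 within pairs, 6 of them at 0.1 or less and 4 above, so the numbers were not used as pairs; the labels do not say whether a number marks a shared litter. With piglet number as a replicate block, 0 members were called at every age, and of all genes 0, 1, 395, 0 and 57 were called from day 1 to 4 wk postweaning in place of 27, 0, 435, 197 and 272; at day 7, 5 of 6 arrays correlated best with their own number. Scanner saturation limits what can be said of APOA1, APOA4, APOC3 and MTTP: a fall from a higher level to the scanner maximum would not be seen. Normexp at a common 75th percentile moved the median of all genes in the weaning contrast by 0.10.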
